A study of Mus musculus with 7 samples.

Results

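The heat-shock chaperones described here are 10 genes of the cytosolic and mitochondrial protein-folding machinery, Hspa1a, Hspa1b, Hsph1, Dnajb1, Hspb1, Hsp90aa1, Hspa8, Hsp90ab1, Hspd1 and Hspe1. They were taken by symbol from the 25467 genes of the deposited count table, whose Ensembl identifiers were matched to GENCODE M21, and all 10 were found and passed the low-count filter. RNA sequencing was done on the medial prefrontal cortex (mPFC) of 7 mice, 4 treated with rhTSP1, the secreted matrix glycoprotein thrombospondin-1 as a recombinant protein, and 3 given PBS, a saline buffer. Each library was taken as 1 mouse, and the labels leave out dose, route, strain, sex, age and time of dissection. Libraries held 15090336 to 18726612 counts with TSP1 and 16748882 to 20755167 with PBS, and values below are CPM, counts scaled to library size with TMM factors.

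Chaperones of the Hsp70 and Hsp90 families bind unfolded or partly folded proteins and release them in cycles driven by ATP, helped by J-domain proteins that deliver clients and by nucleotide exchange factors. Neurons keep large constitutive pools of them, while heat, oxidants and misfolded protein release the transcription factor HSF1, which trimerises and binds inverted repeats of GAA (heat-shock elements) in front of its inducible target genes. Hspa1a, Hspa1b, Hsph1, Dnajb1, Hspb1 and Hsp90aa1 were set down as HSF1-induced members from textbook knowledge, and Hspa8, Hsp90ab1, Hspd1 and Hspe1 as constitutive members. The division is not sharp, since Hsp90aa1 has a high basal level in neurons and Hspd1 and Hspe1 also respond to HSF1. In tissue RNA, fewer cells of a type and less RNA per cell cannot be told apart.

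No shift of either class with TSP1 was detected beyond the spread between libraries. None of the 10 genes passed the adjustment over all genes tested, none had an unadjusted p under 0.05, and none had groups that did not overlap. In the same edgeR fit of 17211 genes, 0 (0%) passed a Benjamini-Hochberg FDR of 0.05 and 1661 (9.65%) had an unadjusted p under 0.05. The groups did not overlap at 1737 genes (10.1%), which were higher with TSP1 at 4.83% and lower at 5.26% of all genes tested. Calls numbered 88 in DESeq2, 85 by the exact test of edgeR and 0 in limma-voom, and none of them was a chaperone listed above. The median log2 fold change of TSP1 over PBS was -0.06 over the 6 induced members and 0.02 over the 4 constitutive members, beside 0.00 over all genes tested. Of the 10 genes, 6 had a fitted value above 0 and 4 below, where 48.9% of all genes tested lay below 0.

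The promoters of Hspa1a and Hspa1b are shown because they hold the letters of a heat-shock element and because the pair can hardly be separated by sequence. Both sequences are the 250 bases before the RefSeq start site (GRCm38.p6), at chr17:34972157-34972406 for Hspa1a and chr17:34959239-34959488 for Hspa1b, both on the minus strand, written 5′ to 3′ with GAANNTTC in capitals.
Hspa1a: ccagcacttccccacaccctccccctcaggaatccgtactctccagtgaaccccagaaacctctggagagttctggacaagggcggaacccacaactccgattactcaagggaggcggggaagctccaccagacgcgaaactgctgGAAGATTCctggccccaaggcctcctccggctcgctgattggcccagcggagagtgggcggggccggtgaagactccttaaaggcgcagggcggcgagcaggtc
Hspa1b: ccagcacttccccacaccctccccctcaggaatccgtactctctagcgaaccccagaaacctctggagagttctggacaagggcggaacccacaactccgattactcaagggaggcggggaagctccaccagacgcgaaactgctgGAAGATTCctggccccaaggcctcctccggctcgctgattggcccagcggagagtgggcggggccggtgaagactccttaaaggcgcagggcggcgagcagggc
The windows are identical at 247 of 250 positions (98.8%), and their start sites lie 12918 bases apart. Counted from 1 at the 5′ end, with the Hspa1a base given first, the differences are C44T, T47C and T249G. The match lies in the same place in both, with 96 bases between it and the start site.

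Promoter entries from RefSeq were matched for 7 of the 10 genes, and Hspa8, Hsp90aa1 and Hsp90ab1 had none. The motifs searched were GAANNTTC and TTCNNGAA, each of which reads the same on both strands, and neighbouring matches may overlap. The 7 genes had 10 windows of 250 bases before a start site, and 7 of these windows held a match, beside 12.8% of the 32851 windows in the RefSeq table. These windows are not independent. Both windows of Hsph1 overlap and hold the same match, those of Hspa1a and Hspa1b are nearly identical, and Hspd1 and Hspe1 share a stretch. No window of Dnajb1 and only 1 of the 2 of Hspd1 held a match. A match is a description of the letters, not a measured site. Stretches of 30 bases around the matches of Hsph1 (chr5:149636351-149636380, minus strand), Hspb1 (chr5:135887801-135887830, plus strand) and Hspe1 (chr1:55088053-55088082, plus strand) show how the repeats differ in number and spacing, again with the matches in capitals.
Hsph1: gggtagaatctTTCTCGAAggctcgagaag
Hspb1: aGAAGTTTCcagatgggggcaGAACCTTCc
Hspe1: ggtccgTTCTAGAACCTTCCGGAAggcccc
Hsph1 had a single TTCNNGAA and Hspb1 had 2 separate GAANNTTC matches. The match of Hsph1 lies before its RefSeq start sites but within the gene as annotated in GENCODE, which runs to 149636376. In Hspe1 the matches run together into 2 overlapping copies of a longer pattern of 3 alternating units, GAA, TTC and GAA or the reverse order, with 2 bases between units, which 0.466% of all windows hold on either strand. The same stretch lies in a window of the neighbouring Hspd1, read on the opposite strand 126 to 144 bases before a start site of that gene, and these start sites of Hspe1 and Hspd1 are 216 bases apart. The chaperonin pair thus shares 1 stretch of repeats between divergent RefSeq start sites. In GENCODE, where Hspd1 runs to 55088243, the stretch lies within Hspd1.

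Levels between genes were compared per length, as mean CPM per kilobase of exon (RPKM) over the 7 libraries. Hsp90ab1 was highest at 431 RPKM, followed by Hspa8 at 303, Hsp90aa1 at 199, Hspd1 at 44.4, Hsph1 at 37.4, Hspe1 at 27.4 and Dnajb1 at 19.9 RPKM. Hspb1 at 4.93, Hspa1b at 3.14 and Hspa1a at 1.76 RPKM were lowest. The library ranges overlapped between Hspe1 and Dnajb1, between Hspb1 and Hspa1b and between Hspa1b and Hspa1a, and did not overlap between any other neighbours in this order. Hspa8, the constitutive Hsc70, was thus 61.8 times as high per length as Hspa1a and Hspa1b together, and Hsp90ab1 was 2.17 times as high as Hsp90aa1. These ratios take the full exon length, whether or not its sequence is unique. That length counts every base in an exon of any annotated transcript, 4301 for Hspa8 and 2999 for Hsp90ab1. Before division by length, Hspa8 and Hsp90ab1 averaged 1309 and 1327 CPM with TSP1, and 1294 and 1250 CPM with PBS. Their order and the ratios thus depend on the lengths taken, and which transcripts were present was not measured. Other genes hold 58.5% of the 50-base words of Hsp90aa1 and 4.49% of those of Hsp90ab1. For Hspa8 the share is 51.4%, for Hspa1a 60.35% and for Hspa1b 62.3%. How reads with several matches were counted is not given, and the part of shared sequence in these ratios was not tested. The 10 genes made up 0.369% to 0.447% of all counts with TSP1 and 0.363% to 0.384% with PBS. In every library Hspa8, Hsp90ab1 and Hsp90aa1 together supplied 85.9% to 87.6% of that share.

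**Figure D1:**
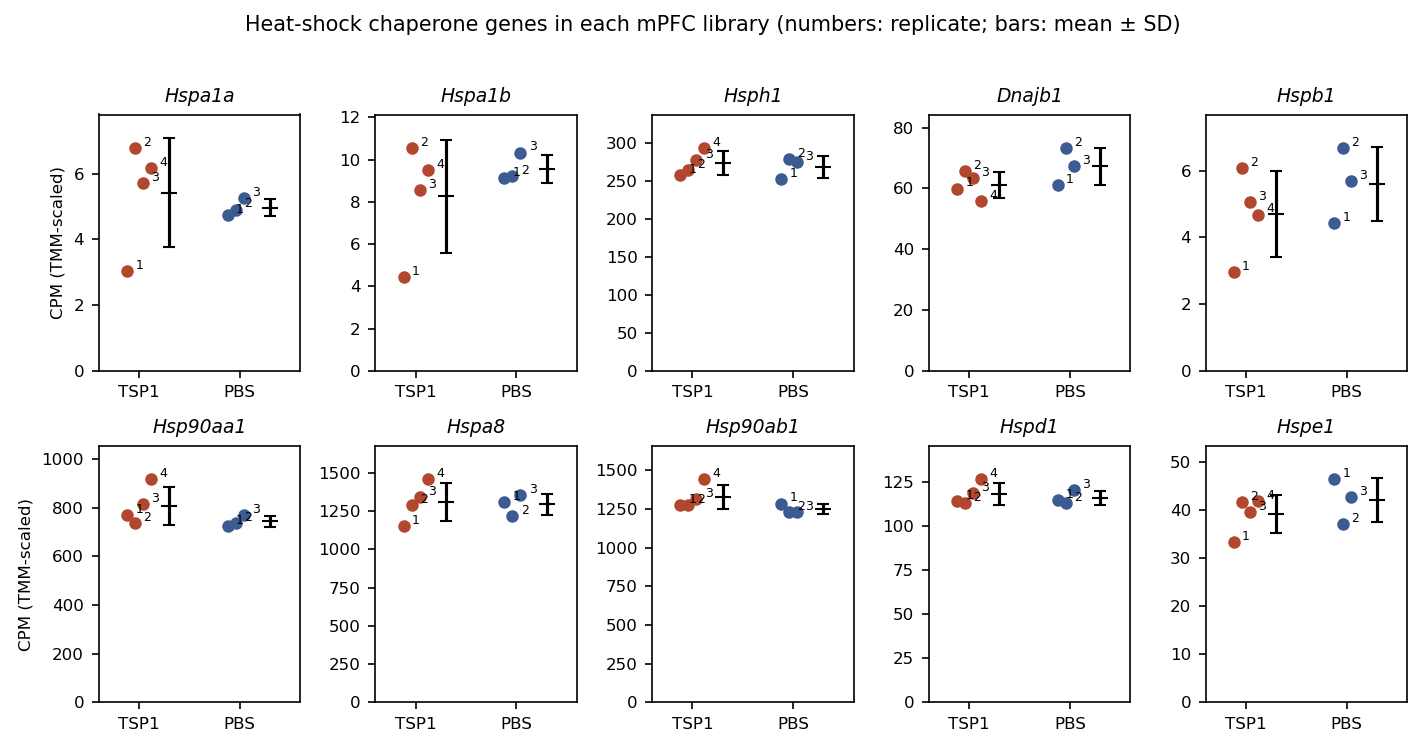
Level of each chaperone gene in each library, as TMM-scaled CPM on a linear axis from 0, with TSP1 (4 libraries) left of PBS (3 libraries), each point numbered by replicate and bars giving the mean and SD. The groups overlap in all 10 genes, and TSP1 replicate 1 is the lowest point for Hspa1a (3.03 CPM), Hspa1b (4.42 CPM) and Hspb1 (2.97 CPM).

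Hspa1a and Hspa1b encode the stress-inducible cytosolic Hsp70 and lie next to each other on chromosome 17, Hspa1a from 34969190 to 34972156 and Hspa1b from 34956436 to 34959238 (GRCm38, minus strand, 2967 and 2803 bases of exon). Hspa1a had 3.03, 6.78, 5.71 and 6.16 CPM in TSP1 replicates 1 to 4, against 4.73, 4.91 and 5.26 CPM in PBS replicates 1 to 3. The PBS libraries lay close together inside the TSP1 range, with TSP1 replicate 1 below and the other 3 TSP1 libraries above them. The log2 fold change was 0.14 (SE 0.22, 95% interval -0.34 to 0.61, adjusted p = 0.896 in edgeR). Hspa1b had 4.42, 10.5, 8.56 and 9.48 CPM with TSP1, against 9.13, 9.22 and 10.3 CPM with PBS. TSP1 replicate 1 was again lowest and TSP1 replicate 2 highest, and the groups overlapped. Its log2 fold change was -0.20 (SE 0.23, 95% interval -0.71 to 0.31, edgeR adjusted p = 0.831).

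These are thin values, with 46 to 126 counts of Hspa1a and 67 to 196 of Hspa1b per library. They are also uncertain as separate genes, because 58.8% of the 50-base words of Hspa1a occur in Hspa1b and 62.3% of those of Hspa1b occur in Hspa1a, and the sources used here do not say how reads that fit both were counted. A predicted gene on the opposite strand, Gm20481, overlaps 19.0% of the exon bases of Hspa1a, and reads of the pair cannot be told apart without strand. Summed over the pair, the inducible Hsp70 had 7.45, 17.3, 14.3 and 15.6 CPM with TSP1, against 13.9, 14.1 and 15.6 CPM with PBS. The sum averaged 13.7 ± 4.33 CPM in TSP1 libraries (SD, n = 4) and 14.5 ± 0.930 CPM in PBS libraries (SD, n = 3), and edgeR gave it a log2 fold change of -0.08 (SE 0.24) and an adjusted p = 0.951. The fitted value of the joined copies therefore has the opposite sign to that of Hspa1a alone and the same sign as that of Hspa1b alone. Without TSP1 replicate 1 the log2 fold changes were 0.33 for Hspa1a and -0.00 for Hspa1b, so this library moved both by about as much as the fitted values themselves.

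The split of counts between the copies was read per library. Hspa1a took 40.7%, 39.1%, 40.0% and 39.4% of the pair's counts in the TSP1 libraries and 34.1%, 34.7% and 33.7% in the PBS libraries. The groups did not overlap, and TSP1 libraries averaged 39.8% ± 0.706 (SD, n = 4) and PBS libraries 34.2% ± 0.504 (SD, n = 3), a difference of 5.61 percentage points. The exact permutation test, two-sided, gave p = 0.0286, the smallest that 35 splits of 7 libraries allow, and 0.0857 after Benjamini-Hochberg adjustment over the 3 pairs compared. The pairs were picked after values had been seen, so these p-values are descriptions and do not establish a difference between the groups. Each library's own 95% Wilson interval was far wider than the spread between libraries of a group, at 34.0% to 44.6% in TSP1 replicate 2 and 28.9% to 39.8% in PBS replicate 1. These intervals cover counting error only. The part that the assignment of shared reads has in this difference was not tested.

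Among the co-chaperones of Hsp70, Hsph1 is the Hsp110 that acts as its nucleotide exchange factor and Dnajb1 is the J-domain protein that delivers clients to it. Hsph1 (chromosome 5, 149614287 to 149636376, minus strand, 7266 bases of exon) had 258, 265, 278 and 294 CPM with TSP1, against 253, 280 and 276 CPM with PBS. TSP1 replicate 4 was highest and PBS replicate 1 lowest, with the others mixed between them. Its log2 fold change was 0.02 (SE 0.07, 95% interval -0.12 to 0.17, edgeR adjusted p = 0.948), which changed sign when TSP1 replicate 4 (-0.01) or PBS replicate 1 (-0.02) was left out. Dnajb1 (chromosome 8, 83608193 to 83612653, plus strand, 3204 bases of exon) had 60.0, 65.6, 63.5 and 55.8 CPM with TSP1, against 61.0, 73.3 and 67.4 CPM with PBS. The highest values were in PBS replicates 2 and 3, while PBS replicate 1 lay among the TSP1 libraries. TSP1 libraries averaged 61.2 ± 4.28 CPM (SD, n = 4) and PBS libraries 67.2 ± 6.15 CPM (SD, n = 3), and the log2 fold change was -0.13 (SE 0.08, 95% interval -0.30 to 0.03, edgeR adjusted p = 0.624). Without PBS replicate 1 it was -0.20, with an unadjusted p = 0.0296 and an adjusted p = 0.534 in edgeR, and without PBS replicate 2 it was -0.06. Of the 10 genes, Dnajb1 in that setting was the only one with an unadjusted p under 0.05 in any setting tried.

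Hspb1, the small heat-shock protein Hsp27 (Hsp25 in mouse), holds unfolded proteins for refolding and binds actin and intermediate filaments. It lies on chromosome 5 from 135887919 to 135889563 (plus strand, 1031 bases of exon) and had 45 to 113 counts per library. With TSP1 it had 2.97, 6.08, 5.05 and 4.69 CPM, against 4.44, 6.68 and 5.68 CPM with PBS. TSP1 replicate 1 was lowest and PBS replicate 2 highest, and the other libraries of both groups lay between them. The log2 fold change was -0.24 (SE 0.22, 95% interval -0.71 to 0.23, edgeR adjusted p = 0.774). Leaving out TSP1 replicate 1 gave -0.08, PBS replicate 2 gave -0.09 and PBS replicate 1 gave -0.39. A pseudogene, Hsp25-ps1, shares 51.7% of its 50-base words. For markers of endothelial cells 8 of 8 fitted values were below 0, and for those of astrocytes 7 of 8. The endothelial markers summed to 256, 235, 251 and 207 CPM in TSP1 replicates 1 to 4. With PBS they summed to 283, 297 and 256 CPM in replicates 1 to 3. TSP1 replicate 1, lowest for Hspb1, thus had the highest endothelial sum of the TSP1 libraries. PBS replicate 2, highest for Hspb1, had the highest sum of all. The part of either cell type in the values of Hspb1 was not tested.

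The Hsp90 pair matures kinases, steroid receptors and other signalling clients, Hsp90aa1 being the stress-responsive alpha form and Hsp90ab1 the constitutive beta form. Hsp90aa1 (chromosome 12, 110690605 to 110702728, minus strand, 3931 bases of exon) had 770, 736, 814 and 917 CPM with TSP1, against 724, 738 and 771 CPM with PBS. TSP1 replicates 3 and 4 lay above all PBS libraries, and TSP1 replicates 1 and 2 among them. TSP1 libraries averaged 809 ± 78.5 CPM (SD, n = 4) and PBS libraries 744 ± 24.0 CPM (SD, n = 3), and the log2 fold change was 0.12 (SE 0.08, 95% interval -0.05 to 0.29, edgeR adjusted p = 0.670), or 0.06 without TSP1 replicate 4. Hsp90ab1 (chromosome 17, 45567775 to 45573271, minus strand, 2999 bases of exon) had 1276, 1276, 1314 and 1441 CPM with TSP1, against 1285, 1231 and 1232 CPM with PBS. PBS replicate 1 lay above TSP1 replicates 1 and 2, so the groups overlapped narrowly. The log2 fold change was 0.09 (SE 0.07, 95% interval -0.07 to 0.24, edgeR adjusted p = 0.742), and 0.05 without TSP1 replicate 4. Hsp90aa1 took 36.6% to 38.9% of the pair's counts with TSP1 and 36.0% to 38.5% with PBS (exact permutation test, two-sided, p = 0.543, and 0.543 after adjustment over the 3 pairs). The pseudogene Gm12346 shares 51.5% of the 50-base words of Hsp90aa1 and was itself given 1104 counts over the 7 libraries, beside 97256 for Hsp90aa1.

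Hspa8 is the constitutive Hsc70, which in neurons also strips clathrin from synaptic vesicles. It lies on chromosome 9 from 40800984 to 40810087 (plus strand, 4301 bases of exon) and had the largest number of counts of the 10 genes, 162728 over the 7 libraries. With TSP1 it had 1153, 1289, 1341 and 1456 CPM, against 1309, 1218 and 1355 CPM with PBS. Both the lowest and the highest library were TSP1 libraries, replicates 1 and 4, and the PBS libraries lay between them. TSP1 libraries averaged 1309 ± 126 CPM (SD, n = 4) and PBS libraries 1294 ± 69.4 CPM (SD, n = 3), and the log2 fold change was 0.02 (SE 0.08, 95% interval -0.16 to 0.20, edgeR adjusted p = 0.969). It was 0.08 without TSP1 replicate 1 and -0.03 without TSP1 replicate 4. Several pseudogenes share sequence with Hspa8, among them Gm15459 with 45.3% of its 50-base words.

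Hspd1 and Hspe1 encode Hsp60 and its lid Hsp10, the chaperonin of the mitochondrial matrix. They lie head to head on chromosome 1, Hspd1 from 55077835 to 55088243 on the minus strand (2642 bases of exon) and Hspe1 from 55088132 to 55091307 on the plus strand (1474 bases of exon), so that 112 exon bases belong to both and cannot be assigned without strand. Hspd1 had 114, 113, 119 and 127 CPM with TSP1, against 115, 113 and 121 CPM with PBS. Its libraries were intermixed, and the log2 fold change of 0.03 had the narrowest standard error of the 10 genes (SE 0.06, 95% interval -0.11 to 0.16, edgeR adjusted p = 0.935). Hspe1 had 33.3, 41.7, 39.6 and 41.9 CPM with TSP1, against 46.3, 37.1 and 42.7 CPM with PBS. TSP1 replicate 1 was lowest and PBS replicate 1 highest, and PBS replicate 2 was below 3 of the 4 TSP1 libraries. Its log2 fold change was -0.10 (SE 0.09, 95% interval -0.31 to 0.10, edgeR adjusted p = 0.776). It was -0.03 when either of these extreme libraries was left out. Hspe1 took 22.6% to 26.9% of the counts of the chaperonin pair with TSP1 and 24.7% to 28.8% with PBS (exact permutation test, two-sided, p = 0.371, and 0.543 after adjustment over the 3 pairs). The pseudogene Hspd1-ps3 shares 42.8% of the 50-base words of Hspd1 and had 573 counts, beside 14622 for Hspd1.

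**Figure D2:**
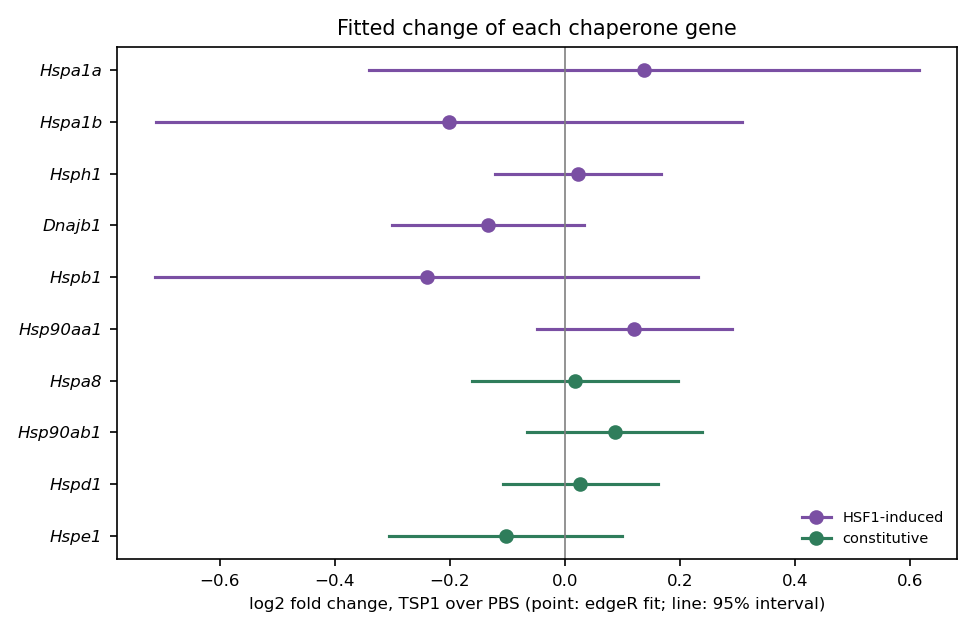
Fitted log2 fold change of TSP1 over PBS for each gene on the horizontal axis, as a point with its 95% interval from edgeR, in purple for the HSF1-induced and in green for the constitutive members. Every interval spans 0, and those of Hspa1a, Hspa1b and Hspb1 are widest, with standard errors of 0.22 to 0.23.

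The intervals give the sizes of change that the data leave possible. For Hsph1, Dnajb1, Hsp90aa1, Hspa8, Hsp90ab1, Hspd1 and Hspe1 the 95% intervals of the fold change lay between 0.809 and 1.22, so a change in the mean beyond these bounds lay outside the interval of each. For Hspa1a, Hspa1b and Hspb1, the genes with the fewest counts, they reached from 0.610 to 1.53 with TSP1 replicate 1 included. Without that library the SE was 0.15 for Hspa1a, 0.13 for Hspa1b and 0.19 for Hspb1. The spread between TSP1 libraries was itself wide for these 3 genes, with coefficients of variation of 30.4% for Hspa1a, 32.5% for Hspa1b and 27.6% for Hspb1. Among PBS libraries they were 5.40% for Hspa1a, 7.00% for Hspa1b and 20.01% for Hspb1. Counting error alone would give 8.21% to 10.9% with TSP1 and 7.62% to 10.6% with PBS. Without TSP1 replicate 1 the TSP1 values were 8.68% for Hspa1a, 10.4% for Hspa1b and 13.7% for Hspb1. For the other 7 genes the coefficients of variation were 5.12% to 10.2% with TSP1 and 2.49% to 11.1% with PBS.

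The comparison of induced with constitutive genes was made within each library, as the mean log2 CPM of the 6 induced members minus that of the 4 constitutive members, relative to the mean of the 7 libraries. This difference was -0.30, 0.16, 0.03 and -0.04 in TSP1 replicates 1 to 4 and -0.12, 0.19 and 0.07 in PBS replicates 1 to 3. Both groups held libraries above and below 0, and their ranges overlapped. TSP1 libraries averaged -0.04 ± 0.19 (SD, n = 4) and PBS libraries 0.05 ± 0.15 (SD, n = 3), a difference of -0.09, smaller than either SD. Without TSP1 replicate 1 the difference of the means was 0.00. With Hsp90aa1 counted as constitutive it was -0.15, and without Hspd1 and Hspe1 it was -0.13.

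**Figure D3:**
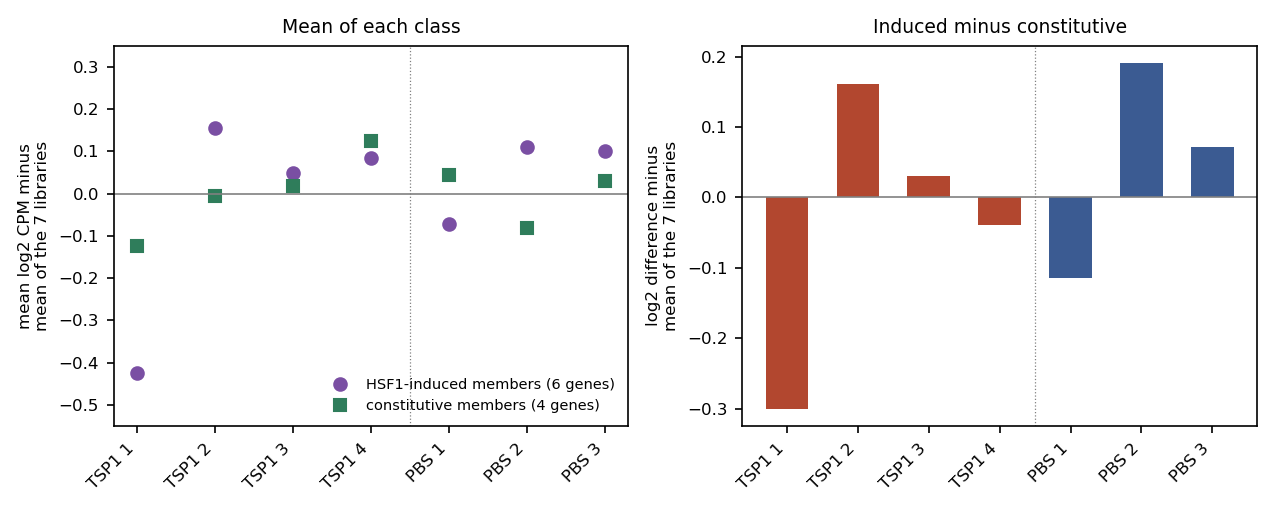
Left, mean log2 CPM of the induced (purple circles) and constitutive (green squares) members in each library, relative to the mean of the 7 libraries; right, their difference as bars from 0, for the 4 TSP1 libraries and then the 3 PBS libraries. TSP1 replicate 1 stands lowest in both classes, at -0.42 and -0.12, and has the lowest difference, -0.30.

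In TSP1 replicate 1 all 10 genes were below their mean over the 7 libraries, and 5 of them (Hspa1a, Hspa1b, Hspb1, Hspa8 and Hspe1) were at their lowest. This library also had the fewest counts, 15090336. In TSP1 replicate 4, 5 genes (Hsph1, Hsp90aa1, Hspa8, Hsp90ab1 and Hspd1) were at their highest and Dnajb1 at its lowest. PBS replicate 2 held 2 of the highest values (Dnajb1 and Hspb1) and 2 of the lowest (Hsp90ab1 and Hspd1), and PBS replicate 1 held 1 of the highest (Hspe1) and 2 of the lowest (Hsph1 and Hsp90aa1). TSP1 replicate 4 stood apart in cell type markers. Its 8 markers of striatal projection neurons, cells whose bodies lie in the striatum, summed to 437 CPM, against 144 to 167 CPM in the other TSP1 libraries and 159 to 183 CPM in the PBS libraries. Its 7 myelin genes summed to 8452 CPM, against 3086 to 4319 CPM in the other TSP1 libraries and 4633 to 5821 CPM with PBS, and its 9 markers of excitatory cortical neurons to 4991 CPM, against 6343 to 7105 CPM in the other TSP1 libraries and 6483 to 7274 CPM with PBS. Camk2a and Slc17a7 made up most of that sum. Of the same 9 markers Bcl11b (115 CPM) and Foxp2 (19.7 CPM) were at their highest of the 7 libraries in TSP1 replicate 4. Whether their counts come from cortical or striatal cells was not tested. In TSP1 replicate 4 the 6 markers of inhibitory neurons summed to 633 CPM. Their sums were 459 to 545 CPM in the other TSP1 libraries and 518 to 587 CPM with PBS. Of these 6, Gad1, Gad2 and Slc32a1 were at their highest in TSP1 replicate 4 and Vip at its lowest. None of these markers was at 0 in any library. The part of these marker differences in the high values of TSP1 replicate 4 was not tested, and without that library the log2 fold changes of the 5 genes were -0.03 to 0.06. Microglia markers summed to 365 to 467 CPM with TSP1 and 469 to 554 CPM with PBS, so the sums only narrowly failed to overlap. Of the 9 markers 9 had fitted values below 0, with Cx3cr1 at -0.02. By edgeR 6 were lower at an unadjusted p under 0.05, beside 5.44% of all genes tested, and 0 passed an FDR of 0.05. The groups did not overlap at 3 of these markers, beside 10.1% of all genes tested. The part of microglia in the chaperone values was not tested. The labels number the TSP1 libraries 1 to 4 and the PBS libraries 8, 11 and 12, so any order effect and the treatment cannot be told apart.

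**Figure D4:**
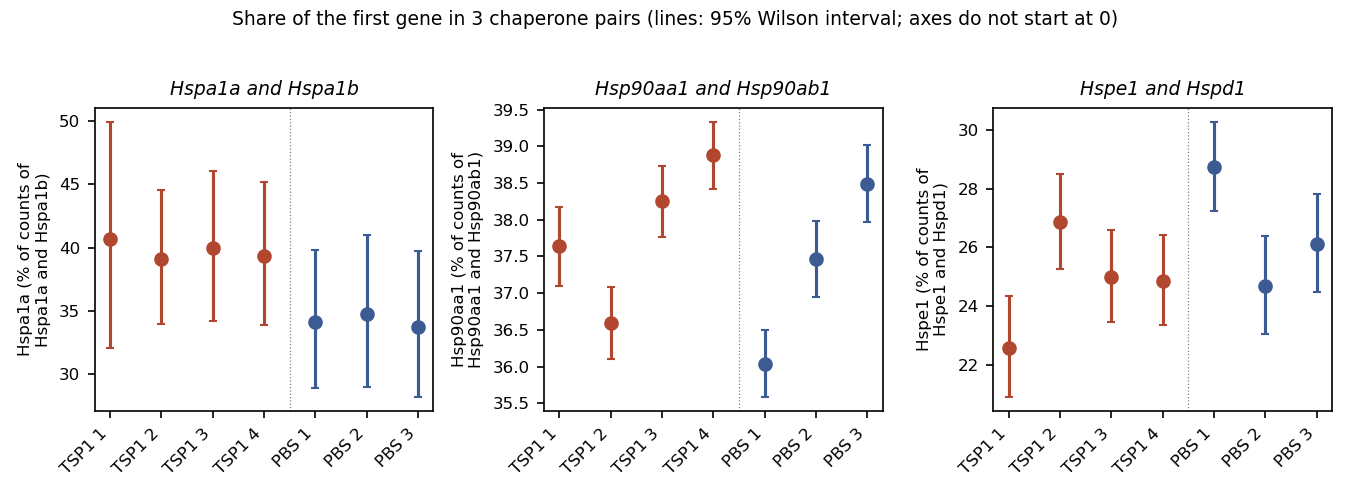
Share of Hspa1a in the counts of Hspa1a and Hspa1b (left), of Hsp90aa1 in those of the Hsp90 pair (middle) and of Hspe1 in those of the chaperonin pair (right), in percent for each library with its 95% Wilson interval, TSP1 left of PBS, on axes that do not start at 0. The Hspa1a share is 39.1% to 40.7% with TSP1 and 33.7% to 34.7% with PBS, while the groups overlap in the other pairs.

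In the wider chaperone network no gene passed either. Of 65 further genes in 5 lists, 64 were tested, and Hsf5 was filtered out for low counts. At an FDR of 0.05 edgeR called none of them, 24 had fitted values above 0 and 40 below, and their median log2 fold change was -0.02, beside 0.00 over all genes tested. At an unadjusted p under 0.05 there was 1 gene higher with TSP1 and 2 lower, together 4.69% of the 64. Of all genes tested, 9.65% were under that limit in either direction, 4.21% higher and 5.44% lower. The groups did not overlap at 3 of the 64 genes, beside 10.1% of all genes tested. These were Hspa12a, Dnaja4 and Dnajb5, named after their values were seen.

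The heat-shock factors themselves were expressed in every library. Hsf1, the master factor of the cytosolic response, averaged 45.2 ± 4.25 CPM in TSP1 libraries (SD, n = 4) and 47.9 ± 1.68 CPM in PBS libraries (SD, n = 3), and its log2 fold change was -0.09 (SE 0.08, edgeR adjusted p = 0.768). Hsf4, a factor best known from the lens, had a log2 fold change of -0.14, or -0.25 without TSP1 replicate 1 and -0.07 without TSP1 replicate 4. All 4 tested genes of this list, Hsf1, Hsf2, Hsf4 and the HSF1-binding protein gene Hsbp1, had fitted values below 0, with a median of -0.07. HSF1 is regulated mainly as a protein, so its mRNA level is not a measure of its activity.

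Among 17 other HSF1 targets, 5 had fitted values above 0 and 12 below, with a median of -0.05. Bag3, which hands clients of Hsp70 to autophagy, had 3.76, 5.38, 4.50 and 4.30 CPM with TSP1, against 6.07, 6.15 and 5.26 CPM with PBS. All but TSP1 replicate 2 lay below the PBS libraries, and the log2 fold change was -0.37 (SE 0.16, unadjusted p = 0.0386, edgeR adjusted p = 0.490). At the other end Hspa4l, an Hsp110 relative, had a log2 fold change of 0.09, or 0.06 without TSP1 replicate 4. Of 24 further cytosolic chaperones and co-chaperones 11 were above 0 and 13 below, with a median of -0.01. Hspa12a, a distant Hsp70 relative that is abundant in brain, had 210, 201, 193 and 196 CPM with TSP1, against 184, 177 and 183 CPM with PBS. Every TSP1 library was above every PBS library, with a log2 fold change of 0.14 (SE 0.06, unadjusted p = 0.0330, edgeR adjusted p = 0.477). Hspbp1, a nucleotide exchange factor of Hsp70, averaged 56.6 ± 4.51 CPM in TSP1 libraries (SD, n = 4) and 63.1 ± 2.28 CPM in PBS libraries (SD, n = 3) (log2 fold change -0.15, edgeR adjusted p = 0.515).

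The 8 subunits of TRiC, the cytosolic chaperonin that folds actin and tubulin, had fitted values within -0.06 (Cct4) and 0.03 (Cct2), with 3 above 0, 5 below and a median of -0.01. Without PBS replicate 1 Cct4 was at -0.00. Among the 11 mitochondrial chaperones and proteases, 5 were above 0 and 6 below, with a median of -0.02. Trap1, the mitochondrial Hsp90, had a log2 fold change of 0.10, or 0.16 without PBS replicate 1 and 0.07 without PBS replicate 2. Clpp, the matrix protease subunit, had one of -0.14, or -0.07 without TSP1 replicate 1 and -0.08 without PBS replicate 1.

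**Figure D5:**
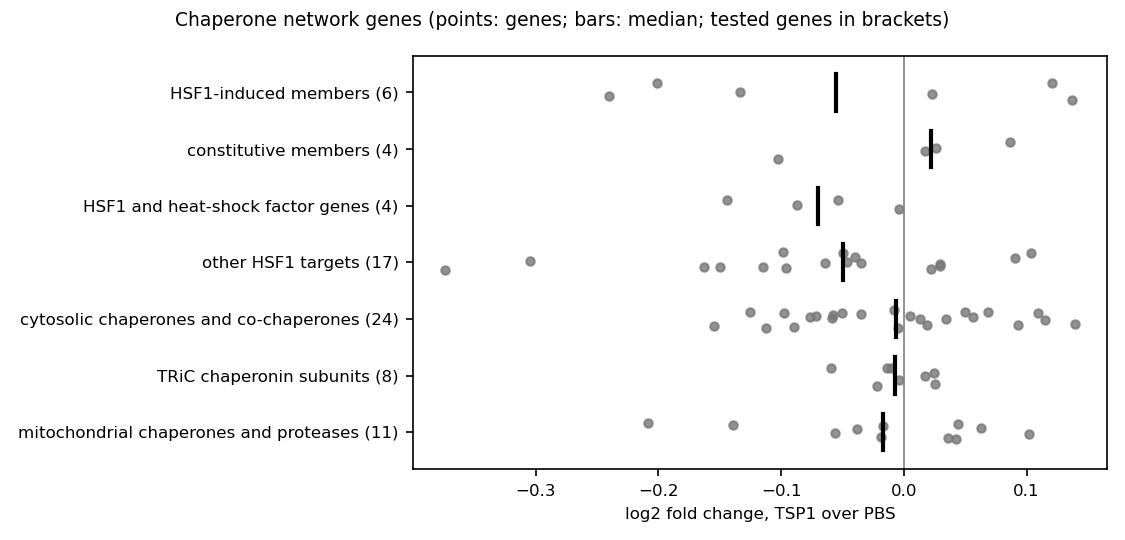
Fitted log2 fold change of TSP1 over PBS of every tested gene in the 2 classes of members and the 5 lists of the chaperone network, 1 point per gene, with the median of each list as a black bar. The medians lie between -0.07 (heat-shock factor genes) and 0.02 (constitutive members), and the lowest single point is Bag3 at -0.37.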

How the data were processed

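Per the labels' protocols, SMARTer mRNA libraries were prepared from 1.3 µg of column-purified total RNA. The authors deposited whole-number read counts per gene, judged raw from their values and differing totals. The submitters' processing notes name the builds GRCm38 and mm10. The aligner, counting tool, annotation, treatment of reads with several matches and strand setting were not given in the sources used here. Table columns were matched to samples by the number that opens the description of the sample, and 0 columns were of other samples. Of 25467 identifiers, 25375 matched GENCODE M21 (version dropped) and 92 were unmatched. Every row named a gene, and libraries of a group differed by more than sampling noise (chi-square 4.26 to 14.7 per degree of freedom).

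edgeR 4.0.16 in R 4.3.3 was run on the whole table (filterByExpr, TMM, robust glmQLFit, glmQLFTest, group alone, two-sided), with Benjamini-Hochberg FDR under 0.05 over the 17211 genes tested. The biological coefficient of variation was 9.8% and the median SE 0.11 log2 units. P-values set the groups against the spread between libraries, each taken as 1 of the 7 mice that the series describes. Class scores used log2 CPM with a prior count of 2, shares of pairs an exact permutation test over libraries in scipy 1.17.1. The fitting code was tested on simulated counts. Shared sequence was measured as 50-base words of GENCODE transcripts found in other genes.

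The rule for named genes took the 10 members, the gene of smallest p in each direction in each pathway, early gene and glucocorticoid list, and the 5 genes most correlated with the induced mean and with Hspa8. 1 of these is not reported here. Lists were HSF1 and heat-shock factor genes, other HSF1 targets, cytosolic co-chaperones, TRiC, mitochondrial chaperones, immediate early and glucocorticoid-responsive genes, and cell type markers. Members and lists were chosen with earlier results of these data known. Same-numbered libraries of the groups did not deviate together (correlations -0.261, -0.033 and 0.010), so numbers were not taken to pair them. Alternatives were RLE size factors, DESeq2 1.42.0, edgeR's exact test, limma-voom (limma 3.58.1), no filter, at least 5 CPM in 3 libraries, a replicate block, length and GC correction, both together, leaving out each library, a prior count of 0.5, other class assignments and summing Hspa1a with Hspa1b. Summing pseudogenes with their parents was chosen after seeing the data. Proteins and genome sequence were not used here.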

Additional observations from a re-analysis of the deposited data

Results flagged for a closer look

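The summed CPM of the striatal projection neuron markers in TSP1 replicate 4, 436.5, stood far from the other TSP1 libraries, of which the next highest was at 166.8. Its gap to that library was 0.921 of the range of the 4 TSP1 libraries, above the 95% critical value of Dixon's test for 4 values. Among 39 sets of 4 TSP1 values tested this way, which included each of the 10 chaperone genes, it was the only one past the limit, and chance gives about 1 in 20.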

How the results depend on the processing

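None of the 10 chaperone genes passed an FDR of 0.05 under any alternative run. Genes past that threshold in the whole table numbered 88 with DESeq2 (which gave no adjusted p for 10876 genes), 85 with edgeR's exact test, 19 without a low-count filter, and 0 to 9 with single libraries left out, 9 of them without PBS replicate 3 and 1 each without TSP1 replicate 2 or PBS replicate 1. Chaperone genes at an unadjusted p under 0.05 numbered 0 to 1 with single libraries left out. The median log2 fold change was then -0.11 to 0.02 for the induced and -0.02 to 0.06 for the constitutive members, and the difference of the class scores -0.17 to 0.00. With Hsp90aa1 counted as constitutive the induced median was -0.13.

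Some fitted values changed sign. The sum of Hspa1a and Hspa1b was at -0.0769, a value of the pair, beside 0.137 for Hspa1a alone and -0.201 for Hspa1b alone. Length and GC correction turned Hsph1 (-0.0145). With single libraries left out, values ran from -0.0215 (PBS replicate 1) to 0.0561 (PBS replicate 2) for Hsph1, from -0.0339 (TSP1 replicate 4) to 0.0751 (TSP1 replicate 1) for Hspa8, from -0.0046 (TSP1 replicate 4) to 0.0564 (PBS replicate 3) for Hspd1 and from -0.0088 (TSP1 replicate 3) to 0.0618 (TSP1 replicate 2) for Cct2. Summing pseudogenes with their parents, chosen after seeing the data, turned no sign. The cause of these turns was not tested.

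The groups share replicate numbers, but no library correlated best with its own number. With the numbers as a replicate block, 0 genes passed, and Hsph1 (-0.0133), Hspa8 (-0.0390), Hspd1 (-0.0082) and Cct2 (-0.0041) were below 0. With the block and the length and GC correction together, so were Hsph1 (-0.0431), Hspa8 (-0.0421) and Hspa4l (-0.0149), while Hsf4 (0.0112) was above 0. The median of the constitutive members was -0.02 and -0.01 in these fits.

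Counts of Hspa1a, Hspa1b and Hspb1 were 45 to 196 per library.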

Other observations

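Among the genes whose log2 CPM ran most nearly parallel to the mean of the HSF1-induced members over the 7 libraries were Ticam1, Islr, Fem1a and Thap7, with Pearson r of 0.964 to 0.987. For Hspa8 they were Myl12b, Ddx1, Canx, Trim13 and Ywhaq, with r of 0.969 to 0.987, among them the endoplasmic reticulum chaperone gene Canx (r = 0.980). These are among the highest of 11263 genes searched. All values come from the same 7 libraries and share their depth and tissue composition, and they are given as descriptions with no test.

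Genes of other stress and activity programmes, read beside the chaperones, were mixed. Of 10 immediate early genes 7 had fitted values above 0, with a median log2 fold change of 0.17, and 3 were higher at an unadjusted p under 0.05, beside 4.21% of all genes tested. Egr2, an activity-induced transcription factor, had 14.8, 14.0, 16.6 and 15.2 CPM with TSP1, against 8.74, 13.5 and 10.6 CPM with PBS, without overlap (log2 fold change 0.47, SE 0.14, edgeR adjusted p = 0.288). Fosb lay at -0.18, or -0.09 without TSP1 replicate 1. Of 8 glucocorticoid-responsive genes 2 were above 0, with a median of -0.17, and 2 were lower at an unadjusted p under 0.05, beside 5.44% of all genes tested. Zbtb16 was at -0.43 (SE 0.12, edgeR adjusted p = 0.302) and the clock and glucocorticoid target Per1 at 0.19, or 0.09 without PBS replicate 3, 0.11 without TSP1 replicate 1 and 0.30 without PBS replicate 2. Among the marker lists, 1 of 8 astrocyte markers, 3 of 6 markers of inhibitory neurons and 3 of 5 tested markers of pericytes and smooth muscle had fitted values above 0.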
